A study of Homo sapiens with 48 samples.

Results

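The 2 siRNAs against SF3B1 used in this RNA-seq experiment, siSF3B1-13 and siSF3B1-16, were compared directly with each other, in DMSO-treated and in 4OHT-treated cells. The libraries were chosen by their titles, which gave 16 of the 48 libraries, with 4 for each siRNA in each treatment. All were made from IMR90 ER:RAS cells, a line of human lung fibroblasts with an oncogenic RAS protein joined to the hormone-binding part of the oestrogen receptor. The ligand 4-hydroxytamoxifen (4OHT) switches this fusion on and drives the cells into senescence, whereas DMSO is the solvent control. Cells were treated for 6 days in complete medium, transfected, and kept for another 2 days in 0.5% serum before RNA was collected. The remaining 32 libraries came from the same cells given non-targeting siRNAs (siNT1 and siNT2) or RBM39 siRNAs (siRBM39-06 and siRBM39-08), and were used as yardsticks. The model rests on this cell line and this RAS fusion alone, and the labels do not say whether replicates came from separate cultures, while the study's methods call replicates of work in culture independent experiments in general.

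SF3B1 is the largest subunit of SF3b, the part of the U2 snRNP that holds the branch point of an intron while the spliceosome assembles, so that exons tend to be skipped and introns to be kept when it is scarce. An siRNA lowers its target through full pairing of its guide strand, and it can lower other transcripts whose 3′UTR pairs with the seed, the short stretch near the 5′ end of the guide. A pair of siRNAs with different sequences shares the target but not the seed, which is why studies use more than 1 siRNA per target. The guide sequences of the siRNAs are not given in the sources used here.

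Total counts on genes ranged from 31467221 to 52734636 in these 16 libraries, and the ranges of the 4 groups overlapped. The fibroblast identity given in the labels was borne out by the markers, since the summed level of 8 fibroblast markers lay between 13653 and 51162 CPM (counts scaled to the library size). In DMSO that sum was 48636 to 51162 CPM with siSF3B1-13 and 43332 to 46446 CPM with siSF3B1-16. Among markers of other cell types, 4 epithelial markers summed to 18.8 to 24.8 CPM with siSF3B1-13 and 13.9 to 15.8 CPM with siSF3B1-16 in DMSO, and to 11.2 to 14.2 and 10.9 to 12 CPM in 4OHT. Endothelial markers summed to at most 3.86 CPM, and leukocyte markers came almost wholly from CD68, with CD3E at 0 in 15 libraries and PTPRC at 0 in 8. In such bulk samples fewer cells of a type and less RNA per cell cannot be told apart, and the part of these small marker differences in the results was not tested.

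Both siRNAs lowered SF3B1 to levels that the test did not tell apart. SF3B1 (ENSG00000115524, chr2:198253239-198299803, minus strand, GRCh37) stood at 30.4, 31, 32.2 and 32.8 CPM in the 4 DMSO libraries with siSF3B1-13 and at 35.2, 33.1, 33.5 and 34.1 CPM with siSF3B1-16. In 4OHT it stood at 29.1, 28.3, 26.2 and 26.8 CPM with siSF3B1-13 and at 30.7, 25.8, 25.3 and 25.9 CPM with siSF3B1-16. The groups did not overlap in DMSO but did in 4OHT, and each library lay far under the 311 to 396 CPM of the siNT libraries. By edgeR's quasi-likelihood fit, the siSF3B1-13 over siSF3B1-16 difference (log2) came to −0.10 ± 0.11 (standard error) with adjusted p = 0.513 for DMSO cells and to 0.04 ± 0.11 with adjusted p = 0.852 for 4OHT cells. All gene-level adjusted p-values below come from the same fit, with Benjamini-Hochberg adjustment over the 9991 genes tested.

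3 other genes central to the study were followed in the same libraries. CHD4, the ATPase of the NuRD chromatin remodelling complex, stood at 177, 169, 177 and 170 CPM with siSF3B1-13 against 217, 214, 214 and 206 CPM with siSF3B1-16 in DMSO, and at 187, 184, 185 and 191 against 225, 227, 227 and 221 CPM in 4OHT. The groups did not overlap, the log2 fold changes were −0.30 (adjusted p = 2.39e-10) and −0.27 (adjusted p = 6.82e-09), and siNT libraries held 305 to 334 CPM. RBM39, a splicing factor that works with U2AF, differed in DMSO by −0.13 (277, 293, 303 and 282 against 319, 314, 313 and 318 CPM, adjusted p = 0.0268). That call was lost without any of 4 libraries (adjusted p up to 0.106), and in 4OHT the difference was −0.02 (adjusted p = 0.767). SUPT5H, a subunit of the elongation factor DSIF, differed by −0.10 in DMSO and −0.17 in 4OHT (adjusted p = 0.575 and 0.352), with 129 to 146 CPM against 143 to 153 CPM and 185 to 193 against 207 to 222 CPM. With the 16 siSF3B1 libraries alone in the fit SUPT5H passed the threshold in both treatments (adjusted p = 0.0371 and 0.000103), and in 4OHT it also did so when replicate 4 of siRBM39-08 in 4OHT was left out of the fit over all libraries (adjusted p = 0.0201).

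Many other genes differed between the siRNAs, mostly by small amounts. In DMSO 3731 of 9991 genes were called (37.3%, adjusted p under 0.05), 1863 higher and 1868 lower with siSF3B1-13, and in 4OHT 2788 genes (27.9%), 1380 higher and 1408 lower. At least 2-fold differences were found for 91 genes in DMSO and 30 in 4OHT. The medians over all genes were −0.0012 and 0.014, which the scaling of the libraries holds near 0. As yardsticks, siNT1 and siNT2 differed at 163 genes in DMSO and 35 in 4OHT, and siRBM39-06 and siRBM39-08 at 4752 and 3154.

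The genes that differed the same way in both treatments numbered 1789 (17.9% of genes tested), with 879 higher (8.80%) and 910 lower (9.11%) with siSF3B1-13. They made up 47.9% of the DMSO calls and 64.2% of the 4OHT calls, and another 109 genes were called in both treatments in opposite directions. The DMSO and 4OHT comparisons share no library. In 1664 of the 1789 genes the siSF3B1-13 and siSF3B1-16 libraries did not overlap in either treatment, where 28.9% of all genes tested met that description. Only 17 genes passed a 2-fold change in both treatments, 4 higher and 13 lower. The non-targeting pair had 17 genes called the same way, and the RBM39 pair 1332 with 220 opposite. The number of calls rests on the spread estimated over all 48 libraries, because with the 16 siSF3B1 libraries alone the calls rose to 6028 in DMSO, 5310 in 4OHT and 3476 the same way. Replicate 4 of siRBM39-08 in 4OHT, which is in neither group compared, weighs on that spread, since without it 5151, 4258 and 2774 genes were called (69 and 2680 the same way for the non-targeting and the RBM39 pair).

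**Figure D1:**
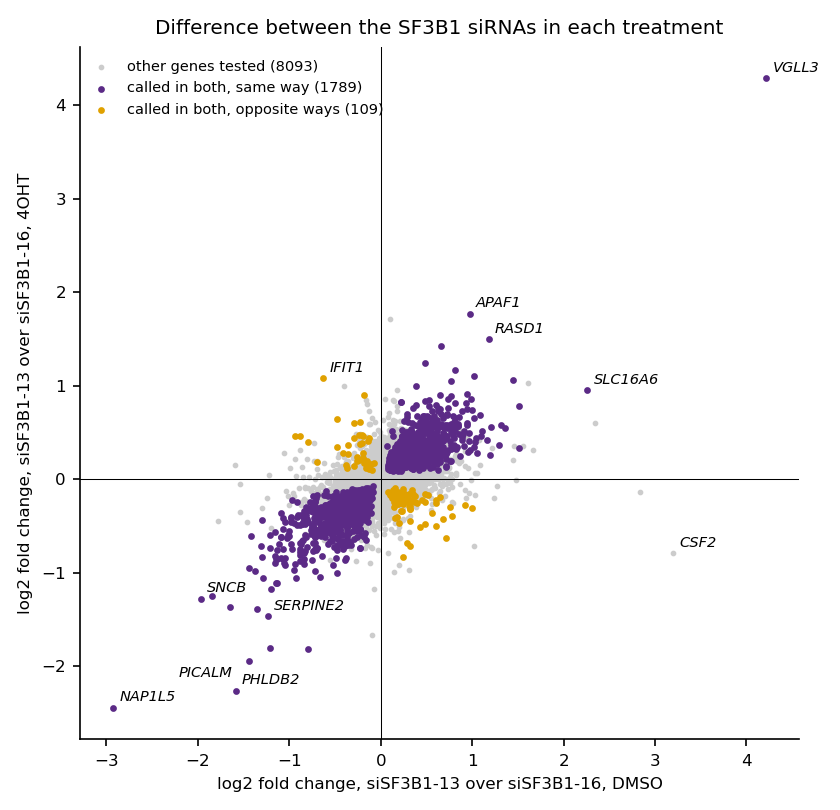
Log2 fold change of siSF3B1-13 over siSF3B1-16 in DMSO (x axis) against that in 4OHT (y axis), with 1 point per gene for 9991 genes. The 1789 genes called the same way in both treatments are purple and the 109 called in opposite ways are yellow. VGLL3 stands apart at the upper right, NAP1L5 at the lower left, and CSF2, at the lower right, had no count in the DMSO libraries with siSF3B1-16.

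Among the genes lower with siSF3B1-13 in both treatments, NAP1L5 differed most. NAP1L5 (ENSG00000177432, chr4:89617064-89618980, minus strand), an imprinted gene of the nucleosome assembly protein family, stood at 1.43, 1.55, 1.72 and 1.64 CPM with siSF3B1-13 against 13.1, 11.9, 10.9 and 12.7 CPM with siSF3B1-16 in DMSO. In 4OHT it stood at 1.99, 2.53, 2.30 and 1.96 against 11.9, 11.8, 11.9 and 12 CPM. The siSF3B1-16 libraries lay within the span of the siNT libraries (9.37 to 15.3 CPM), and the siSF3B1-13 libraries far under it. The gene was 7.61-fold lower with siSF3B1-13 in DMSO and 5.44-fold lower in 4OHT (log2 fold changes −2.93 and −2.44, standard error 0.09 for both, adjusted p = 8.12e-26 and 3.62e-23).

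PICALM and SERPINE2 were lower with siSF3B1-13 at much higher levels of expression. PICALM (ENSG00000073921, chr11:85668218-85780924, minus strand), a clathrin assembly protein of endocytosis, stood at 40.7, 42.2, 44.4 and 40.2 CPM with siSF3B1-13 against 113, 117, 114 and 110 CPM with siSF3B1-16 in DMSO. In 4OHT it stood at 25.4, 25.7, 27.4 and 27 against 100, 99.4, 103 and 103 CPM. Both siRNAs left it under the siNT libraries in 4OHT (171 to 184 CPM), and the log2 differences between the siRNAs were −1.44 and −1.94. SERPINE2 (ENSG00000135919, chr2:224839762-224904035, minus strand), a secreted inhibitor of serine proteases, stood at 108, 111, 116 and 112 against 262, 257, 271 and 262 CPM in DMSO and at 147, 151, 154 and 158 against 426, 407, 428 and 423 CPM in 4OHT. The siSF3B1-16 libraries did not differ from siNT2 by the test (0.06 with adjusted p = 0.228, and 0.01 with adjusted p = 0.860), whereas siSF3B1-13 differed from siNT1 by −1.03 and −1.30.

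PHLDB2, which links the cell cortex to microtubules, was also much lower with siSF3B1-13, at 4.91, 5.03, 5.52 and 5.77 against 16.5, 15.3, 16.5 and 15.5 CPM in DMSO. Its 4OHT libraries held 4.88, 3.97, 4.42 and 5.01 against 21, 22.4, 21.2 and 23.5 CPM, which gave log2 fold changes of −1.59 and −2.26. In 4OHT the siSF3B1-16 libraries lay above the siNT2 libraries (11.9 to 13 CPM) by 0.85, so the siRNAs moved PHLDB2 in opposite directions there. The other 8 genes named by the same rule were BDH2, a short-chain dehydrogenase, the katanin-like gene KATNAL1, the synuclein SNCB, the linker histone HIST1H1C, the interleukin-15 receptor subunit IL15RA, AMMECR1, FAM173B, and the metallopeptidase LMLN. Their log2 fold changes ran from −1.97 (SNCB) to −1.13 (LMLN) in DMSO and from −1.80 (IL15RA) to −1.11 (LMLN and FAM173B) in 4OHT, without overlap between the siRNAs in either treatment. SNCB and IL15RA were expressed at low levels, with at most 10.3 and 4.39 CPM in these 16 libraries. Each of the 12 was under siNT1 with siSF3B1-13 in both treatments. With siSF3B1-16 IL15RA (−0.75 and −1.59) and SNCB (−1.24 and −0.50) were also called under siNT2 in both treatments. BDH2 was so in DMSO alone (−0.42) and KATNAL1 in 4OHT alone (−0.31). HIST1H1C, AMMECR1, FAM173B and LMLN were called between siSF3B1-16 and siNT2 in neither treatment.

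8 of these 12 genes shared a run of 7 bases in the 3′UTR. Each possible heptamer was counted on the sense strand of the 3′UTR of 1 transcript per gene (9807 genes, GENCODE annotation lifted to GRCh37), and heptamers held by at least 10% of the 390 genes called at least 0.5 log2 units lower with siSF3B1-13 in DMSO were ranked by that share over the share of all genes. ACGAAGA stood first. The 30-base windows around it are printed because they are what the most lowered genes have in common, 5′ to 3′ with the heptamer in capitals.
NAP1L5 chr4:89618308-89618337 (minus): agagaaagcccACGAAGAaaaaagcctggt
PICALM chr11:85668935-85668964 (minus): gagtttagtaaACGAAGAattaaactgcac
SERPINE2 chr2:224840522-224840551 (minus): actactttgctACGAAGAaagactcctttc
BDH2 chr4:104000780-104000809 (minus): tgaacctggttACGAAGAaaactcaccaat
KATNAL1 chr13:30782614-30782643 (minus): gttgataaaatACGAAGAaattcctgcaat
SNCB chr5:176047495-176047524 (minus): tgtgtttttaaACGAAGAtccgagcgacgg
AMMECR1 chrX:109438940-109438969 (minus): ctttaactcagACGAAGAttctgattgcac
FAM173B chr5:10227388-10227417 (minus): ggagaaaacaaACGAAGAaaaacaggtaga
PHLDB2, HIST1H1C, IL15RA and LMLN do not hold these letters in the 3′UTR searched. A match is a description of the sequence, not a site or a cause.

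The heptamer was chosen from the DMSO libraries, where 43 of the 390 lowered genes held it (11%) against 251 of all 9807 (2.56%). In 4OHT, whose libraries took no part in the choice, 39 of 217 genes lowered by at least 0.5 held it (18%). Of these 217, 122 were lowered in DMSO as well and so had served in the choice, and 30 of them held it (24.6%). The 12 genes named as lower with siSF3B1-13 had also served in the choice. Among genes at least 0.5 higher with siSF3B1-13 the heptamer was found in 8 of 389 in DMSO (2.06%) and 2 of 160 in 4OHT (1.25%). None of the 12 genes named as higher held it. The heptamer ranked next, TGATATA, was held by 20.8% of the lowered genes and by 12.7% of all genes. The median 3′UTR was 1509 bases in the genes lowered in DMSO, 1892 in those lowered in 4OHT and 1456 in all genes, and the higher genes had longer ones (2049 and 1967.5). On the side of the higher genes the heptamer ranked first, GACAATC, was held by 11.6% of the DMSO set, 8.13% of the 4OHT set and 5.34% of all genes.

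Seen over all genes, the 251 that held ACGAAGA lay lower with siSF3B1-13. They include the 43 holders among the DMSO genes from which the heptamer was chosen. The medians below, also those against the non-targeting controls, are therefore partly set by that choice. Medians without the 43 were not computed, so the size of the shift apart from the choice was not tested. The median log2 fold change of the 251 between the siRNAs was −0.100 in DMSO and −0.103 in 4OHT, against 0.001 and 0.016 in the 9556 genes without it. Against the non-targeting controls the shift was found with siSF3B1-13 (medians −0.183 and −0.144, against 0.010 and 0.031) and not with siSF3B1-16 (−0.001 and −0.006, against 0.005 and 0.016). SF3B1 itself held the letters at position 52 of its transcript, in the coding sequence across the junction of exons 1 and 2 on chromosome 2.
SF3B1 (minus strand, spliced, GRCh37): gatcgccaagactcACGAAGAtattgaagc
The heptamer was found anywhere in the transcript in 1210 of 9807 genes (12.3%). Its relation to the guide strand of siSF3B1-13 was not tested, since that sequence was not to hand.

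Among the genes higher with siSF3B1-13, VGLL3 stood apart, and the change lay with siSF3B1-16. VGLL3 (ENSG00000206538, chr3:86925538-87040299, minus strand), a cofactor of TEAD transcription factors, stood at 63.1, 78.0, 84.9 and 75.8 CPM with siSF3B1-13 against 4.57, 3.98, 4.06 and 3.63 CPM with siSF3B1-16 in DMSO, where siNT libraries held 83.1 to 97.2 CPM. In 4OHT, where siNT libraries held 28.7 to 34.4 CPM, it stood at 35.7, 34.4, 35.9 and 33.4 against 1.77, 1.41, 1.80 and 2.08 CPM. The gene was thus 18.6-fold and 19.5-fold lower with siSF3B1-16 (log2 fold changes 4.22 and 4.28, standard errors 0.21 and 0.23, adjusted p = 1.38e-19 and 3.00e-18). Relative to siNT it differed by −4.48 and −4.13 on the log2 scale with siSF3B1-16, while with siSF3B1-13 it differed by −0.29 (adjusted p = 0.132) and 0.14 (adjusted p = 0.466).

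APAF1 (ENSG00000120868, chr12:99039068-99129211, plus strand), the core of the apoptosome that activates caspase-9, showed the same side. It stood at 31.7, 36.4, 34.9 and 38 CPM with siSF3B1-13 against 18.3, 16.9, 19.3 and 17.3 CPM with siSF3B1-16 in DMSO and at 40.5, 40.4, 40.5 and 39.1 against 12.1, 13, 10.7 and 11.4 CPM in 4OHT. The siNT libraries held 41.5 to 48.9 CPM, so that siSF3B1-16 differed from siNT2 by −1.33 and −1.83 on the log2 scale, and siSF3B1-13 from siNT1 by −0.44 (adjusted p = 0.00164) and −0.13 (adjusted p = 0.328). The log2 difference between the siRNAs was larger in 4OHT (1.77) than in DMSO (0.97), by 0.80 (adjusted p = 0.00152).

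Of the other 10 genes named on this side, 8 were called above siNT1 with siSF3B1-13 in both treatments. SLC16A6, a monocarboxylate transporter, stood at 33.9 to 41.9 CPM with siSF3B1-13 against 7.35 to 9.25 CPM with siSF3B1-16 in DMSO and 6.98 to 8.35 CPM in siNT1, and at 655 to 686 against 334 to 358 CPM in 4OHT. BTBD3, IRS2, an adaptor of the insulin receptor, and FZD4, a Wnt receptor, were at least 1.76-fold higher with siSF3B1-13 in both treatments. Each was above siNT1 with siSF3B1-13. With siSF3B1-16 FZD4 (0.54 and 1.12) and IRS2 (0.24 and 0.91) were also above siNT2, so both siRNAs raised them and siSF3B1-13 did so further. BTBD3 was not called between siSF3B1-16 and siNT2. BTBD3 had 101 to 125 against 42.3 to 43.2 CPM in DMSO, IRS2 50.6 to 57.6 against 22.4 to 25.5 CPM in 4OHT. The secreted neuropeptide precursor VGF, the lipase inhibitor G0S2 and LRRC33 were likewise above siNT1, though G0S2 held no more than 0.575 CPM in DMSO. With siSF3B1-16 G0S2 (2.21) and LRRC33 (0.85) were above siNT2 in 4OHT as well. In DMSO LRRC33 was under siNT2 with siSF3B1-16 (−0.46) and G0S2 was not called, and VGF was called in neither treatment. DCC, the netrin receptor, lay above siNT1 with siSF3B1-13 (0.57 and 0.35) and under siNT2 with siSF3B1-16 (−0.41 and −0.52), and ITPKA, an inositol trisphosphate kinase, lay under siNT2 with siSF3B1-16 (−0.66 and −0.88). RASD1, a RAS-like GTPase induced by dexamethasone, was under siNT2 with siSF3B1-16 in DMSO (−0.97) and above siNT1 with siSF3B1-13 in 4OHT (1.42). The log2 fold changes of these 10 genes between the siRNAs ran from 0.81 to 2.26 in DMSO and from 0.78 to 1.5 in 4OHT, and none of the 24 genes named on either side lost its call when any 1 of the 16 libraries was left out.

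**Figure D2:**
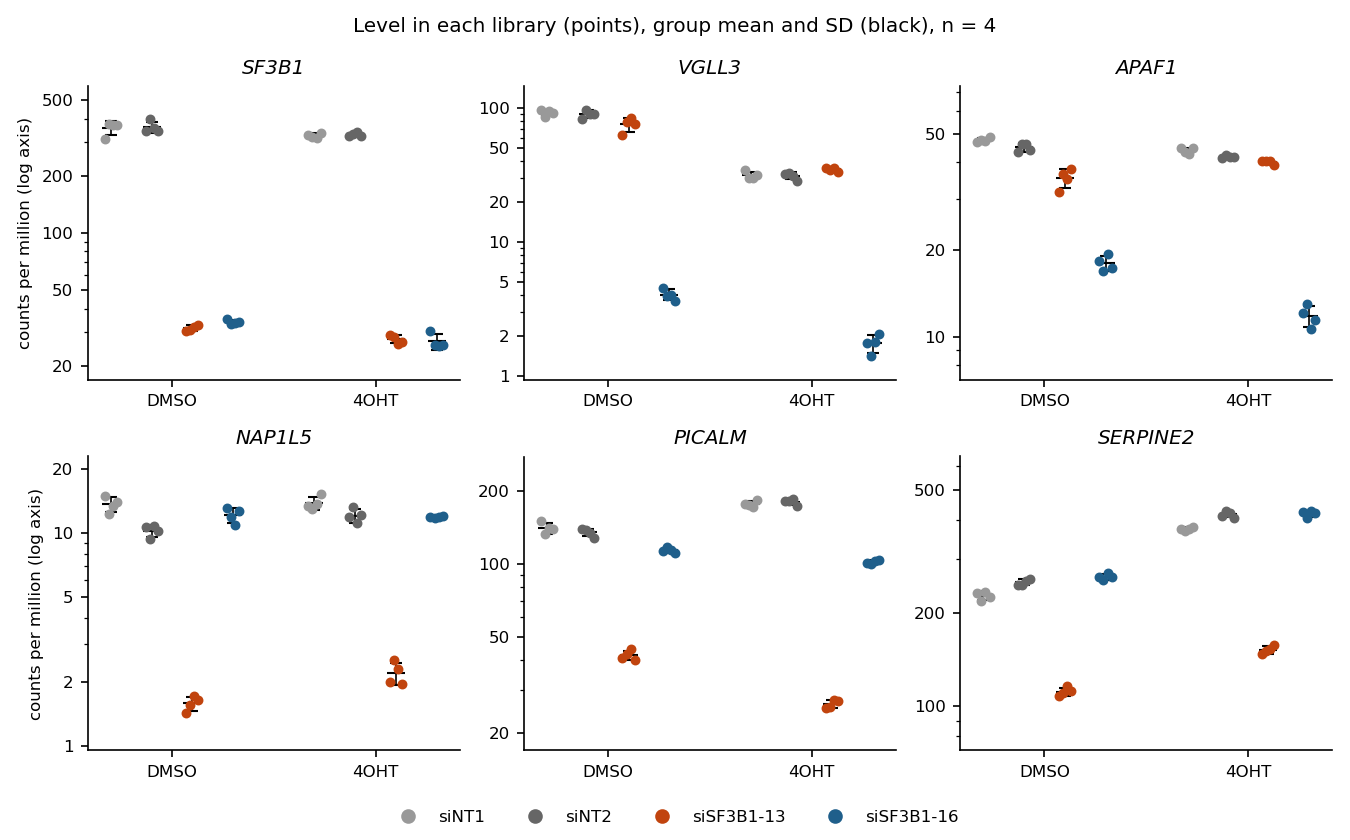
Level of SF3B1 and of 5 genes that differed between the siRNAs, in CPM on a log axis, with 1 point per library and the mean ± SD (n = 4) in black. SF3B1 lay between 25.3 and 35.2 CPM with either siRNA, VGLL3 and APAF1 were lowest with siSF3B1-16, and NAP1L5, PICALM and SERPINE2 were lowest with siSF3B1-13.

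The genes called the same way were placed against the non-targeting controls, siSF3B1-13 against siNT1 and siSF3B1-16 against siNT2. That pairing was set here so that the 2 comparisons share no library, and the other pairing was not tested. The 1789 genes had more often moved in opposite directions, or with 1 siRNA alone, than all genes tested. This placing shares the siSF3B1 libraries with the choice of the 1789 genes. In DMSO 984 of them (55.0%) were called with both siRNAs in 1 direction, 403 (22.5%) with siSF3B1-13 alone, 204 (11.4%) with siSF3B1-16 alone, 170 (9.50%) in opposite directions and 28 (1.57%) with neither. Over all genes tested these shares were 55.4%, 14.8%, 10.1%, 2.54% and 17.2%. In 4OHT the shares were 67.8%, 16.4%, 9.67%, 3.13% and 2.96%, against 63.8%, 11%, 7.0%, 0.751% and 17.4% over all genes. Where both siRNAs had moved a gene the same way, the change was larger with siSF3B1-13 in 813 of 984 genes in DMSO (82.6%) and in 1004 of 1213 in 4OHT (82.8%), against 61.7% of 5531 and 69.8% of 6376 among all genes moved the same way by both. The 984 genes were 564 lower and 420 higher than siNT, and the 1213 were 684 lower and 529 higher.

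To see which pathways the differences fell in, 23 lists of genes were counted, and their members were read against the 17.9% of all genes that were called the same way in both treatments. For each treatment alone, 1863 of all 9991 genes were higher and 1868 lower with siSF3B1-13 in DMSO (37.3% called), and 1380 and 1408 in 4OHT (27.9%). The mitosis list had the highest share, 46.7%, in the fit over all libraries. Without replicate 4 of siRBM39-08 in 4OHT it kept that share, and lysosomal genes (59.3%) and RAS-ERK output (47.4%) stood above it, against 27.8% of all genes. Of the 15 members of the mitosis list tested, all were lower with siSF3B1-13 in DMSO, 7 were lower in 4OHT, none was higher in either, and the medians were −0.97 and −0.36. TOP2A, the topoisomerase that untangles chromosomes, stood at 2.80, 3.11, 3.70 and 3.05 CPM with siSF3B1-13 against 7.61, 7.84, 8.09 and 7.81 CPM with siSF3B1-16 in DMSO, where siNT libraries held 40.8 to 59.8 CPM. In 4OHT it held 1.57, 1.82, 1.66 and 2.04 against 2.70, 2.46, 2.22 and 2.31 CPM. Both siRNAs thus left TOP2A far under siNT, and the log2 fold changes between them were −1.30 and −0.44. CCNB2, a cyclin of mitotic entry, differed by −1.05 and −0.46, and the mitotic kinase AURKA by −0.45 and −0.49. The 4OHT calls of TOP2A and CCNB2 were lost without any of 3 and of 2 libraries (adjusted p up to 0.0717 and 0.145). In the DNA replication list 8 of 17 were lower and 1 higher in DMSO, with MCM6 (−0.50 and −0.43) and MCM4 (−0.29 and −0.23) lower and PCNA (0.34 and 0.32) higher in both treatments.

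Cholesterol synthesis and uptake differed in DMSO much more than in 4OHT. Of 22 members tested 16 were lower and none higher with siSF3B1-13 in DMSO, 4 were lower and 1 higher in 4OHT, and the medians were −0.49 and −0.03. CYP51A1, the sterol demethylase of the pathway, was lower in both, at 86, 78.1, 82.7 and 80.5 against 173, 167, 175 and 169 CPM in DMSO (−1.06) and 80.0, 87.1, 81.2 and 82.1 against 156, 156, 153 and 150 CPM in 4OHT (−0.90). The siNT libraries held 174 to 232 CPM, above all siSF3B1-13 libraries. HMGCS1 and IDI1, enzymes of the early mevalonate steps, differed by −0.74 and −0.70 in DMSO but by −0.18 and −0.17 in 4OHT. SQLE, the squalene epoxidase, was the other member called the same way in both, and is named after its values were seen.

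Among the lists with more members higher than lower with siSF3B1-13 in DMSO were p53 targets, lysosomal genes and RAS-ERK output. Of 22 p53 targets 10 were higher and none lower in DMSO, 6 were higher and 1 lower in 4OHT, and 6 were higher in both (27.3%, against 8.80% of all genes). GDF15, a secreted stress cytokine, stood at 211, 206, 189 and 204 against 111, 121, 116 and 127 CPM in DMSO (0.77) and differed by 0.37 in 4OHT, and BBC3, the BH3-only protein PUMA, differed by 0.53 and 0.39 and TP53INP1 by 0.35 and 0.32. Of 27 lysosomal genes 15 were higher and 2 lower in DMSO, 7 and 1 in 4OHT, with medians of 0.23 and 0.13. Without replicate 4 of siRBM39-08 in 4OHT, an alternative added after seeing the data, the lysosomal genes called the same way rose from 8 to 16 of 27, against 27.8% of all genes, while the mitosis list stayed at 7 of 15 and the cholesterol list went from 4 to 6 of 22. The cholesterol exporter NPC1 (0.28 and 0.33) and the autophagy receptor SQSTM1 (0.35 and 0.24) were higher in both, and the proton pump subunit ATP6V1A was lower (−0.40 and −0.31). Of 19 genes of RAS-ERK output 10 were higher and 2 lower in DMSO but 4 and 5 in 4OHT. Of its 6 members called the same way 4 were higher and 2 lower. The lower ones were the RAS inhibitor SPRED1 (−0.71 and −0.74) and the EGF receptor ligand HBEGF (−0.23 and −0.74). EREG, also an EGF receptor ligand, was among the higher ones (0.43 and 0.41). The DMSO call of HBEGF was lost without any of 12 libraries (edgeR, adjusted p up to 0.229).

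Apoptosis regulators were split. Of 23 tested, 7 were higher and 4 lower in DMSO, 3 and 6 in 4OHT, and 5 were called the same way in both (21.7%, near the 17.9% of all genes). BAK1, which permeates the mitochondrial outer membrane, stood at 16.4, 15.2, 13.7 and 16.6 against 24.3, 30.8, 27.2 and 28 CPM in DMSO (−0.84) and at 23.9, 23.8, 24.6 and 22.8 against 44.3, 45.1, 47 and 42.3 CPM in 4OHT (−0.91). BCL2L11, the BH3-only protein BIM, was higher with siSF3B1-13 (0.63 and 0.73), as was APAF1. The list of ATF4 and ER stress genes was mixed as well, with 7 higher and 4 lower in DMSO and 8 and 5 in 4OHT. Of its 21 members tested 8 were called the same way (38.1%), 5 higher and 3 lower. The stress factor DDIT3 (0.43 and 0.61) and the chaperone DNAJB9 (0.30 and 0.30) were higher, whereas HSP90B1, the chaperone GRP94, was lower (−0.82 and −0.30).

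Among genes of splicing 18.2% of the U2 snRNP and SF3b list, 15.8% of the SR list and 30% of the hnRNP list were called the same way, against 17.9% of all genes. Of 22 genes of the U2 snRNP and SF3b 8 were lower and none higher in DMSO and 4 lower and none higher in 4OHT, and the same 4 were called in both. These were the U2-associated proteins SR140 (34.2 ± 2.42 against 46 ± 1.05 CPM in DMSO, SD, n = 4, −0.43, and −0.40 in 4OHT), HTATSF1 (−0.75 and −0.27) and CHERP (−0.38 and −0.18), and, named after its values were seen, SF3B3 (−0.08 in both). Of 19 SR proteins and their kinases 3 were called the same way (SFRS13A at 0.34 and 0.29, SRPK2 at −0.38 and −0.25, SFRS11 at −0.34 and −0.22). Of 20 hnRNP proteins 5 were higher and 4 lower in DMSO, 5 and 2 in 4OHT, and 6 were called the same way, including HNRNPA1 (−0.46 and −0.23), HNRNPA0 (0.18 and 0.34) and HNRNPA3 (0.13 and 0.22). Of 13 genes of the small RNA machinery that loads siRNAs none was called the same way in both treatments, with 2 higher and 3 lower in DMSO and 1 lower in 4OHT.

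The remaining lists gave the following counts, to be read against the 17.9% of all genes called the same way. Called the same way in both treatments were 1 of 16 interferon-stimulated genes (PARP9, −0.51 and −0.72), 3 of 16 NRF2 targets (HMOX1 and SRXN1 higher, ME1 lower), and 1 of 14 NF-kB subunits and feedback genes (ICAM1, 0.83 and 0.34). Among 24 genes of the senescent secretome 3 were, including IGFBP3 (−0.48 and −0.71) lower and IGFBP7 (0.51 and 0.19) higher, with 3 higher and 5 lower in DMSO and 7 and 9 in 4OHT in all. Of 71 cytosolic ribosomal proteins 2 were lower in both (RPS6 and AC004086.1), and of 36 genes of respiratory complex I none was. Ribosome biogenesis had 5 of 27 (RRS1 higher, NOP58, NOLC1 and others lower), collagens 2 of 19 (COL8A1 and COL5A1 higher, with 5 higher and 2 lower in DMSO), and TGF-beta targets and contractile genes 2 of 20 (including TGFBI, higher, with 7 higher and 3 lower in DMSO). Transcription elongation had 4 of 23 (CCNT1 at 0.47 and 0.49 higher, CTR9 and LEO1 lower) and the DNA damage response 1 of 14 (MDC1, −0.56 and −0.30). Calls of small size were the least secure, since 6 named genes in DMSO and 11 in 4OHT lost their call without at least 1 of the 16 libraries, with adjusted p between 0.0502 and 0.229. Lost most often were the DMSO call of HBEGF (without any of 12 libraries) and the 4OHT call of COL5A1 (any of 7). The 4OHT calls of IGFBP7 and SQSTM1 and the DMSO call of LEO1 were each lost without any of 6.

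**Figure D3:**
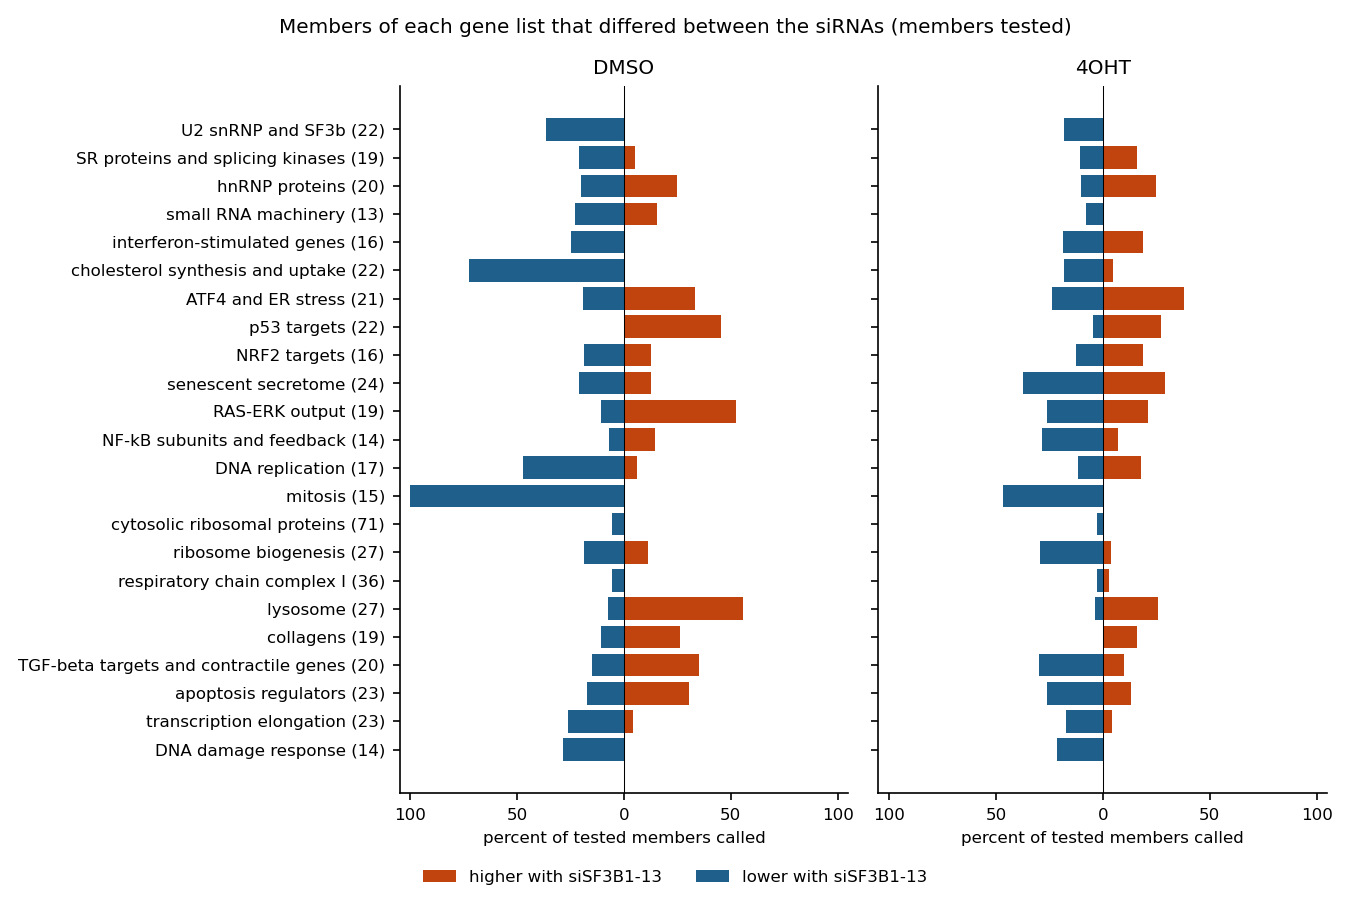
Share of each list's tested members (number in brackets) called higher (orange, to the right) or lower (blue, to the left) with siSF3B1-13 than with siSF3B1-16, in DMSO and 4OHT, in percent. The mitosis bar reaches all 15 members in DMSO and 7 in 4OHT, and the cholesterol bar falls from 16 of 22 to 4 of 22. Over all genes 37.3% were called in DMSO and 27.9% in 4OHT.

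The difference between the siRNAs itself differed between DMSO and 4OHT at 1127 genes (11.3% of those tested, 529 with a higher and 598 with a lower log2 fold change in 4OHT), of which 52 by at least 2-fold. With the 16 siSF3B1 libraries alone 3058 were called, and without replicate 4 of siRBM39-08 in 4OHT 2042. IFIT1, an interferon-induced antiviral gene, turned direction, with 14.5, 12.3, 12.6 and 12.8 CPM with siSF3B1-13 against 24, 19.4, 17.3 and 20.2 CPM in DMSO, and 4.90, 3.85, 3.84 and 5.53 against 2.02, 2.10, 2.69 and 1.76 CPM in 4OHT. Its log2 fold changes were −0.63 and 1.08, and they differed by 1.71 (adjusted p = 1.48e-08). SLC7A14, a cationic amino acid transporter, was higher with siSF3B1-13 in DMSO (50.2, 61.1, 59.0 and 55.1 against 27.3, 29.4, 28.7 and 25.8 CPM) and held at most 0.721 CPM in any siNT or siSF3B1 library in 4OHT. CSF2, the cytokine GM-CSF of the secretome, had no count in any DMSO library with siSF3B1-16 and at most 0.0575 CPM with siSF3B1-13 there, and no fold is given. In 4OHT it held 19, 19.8, 20.2 and 18.7 against 30.8, 36.9, 33.3 and 32.9 CPM (−0.79, adjusted p = 4.41e-09), under the 49.8 to 68.6 CPM of siNT.

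Exon inclusion was next compared, as PSI, the percent of transcripts of a gene that include an exon. Mean PSI over the 7673 cassette exons tested was lower with siSF3B1-13 in both treatments. In DMSO it was 78.9, 79.0, 78.8 and 78.5 with siSF3B1-13 against 79.9, 79.8, 79.9 and 79.6 with siSF3B1-16, and in 4OHT 77.6, 77.7, 77.7 and 77.5 against 78.8, 78.9, 78.9 and 78.8. The siRNAs did not overlap, and the differences were −1.0 and −1.24 points, each at the smallest p that 4 against 4 libraries allow (two-sided exact permutation test, p = 0.0286, adjusted p = 0.0357 over 20 tests). Permuted within both treatments together, the average difference was −1.12 points (exact permutation test over 4900 splits, p = 0.000408). From siNT mean PSI moved by −4.88 and −5.93 points with siSF3B1-13 and by −3.88 and −4.6 points with siSF3B1-16, in DMSO and 4OHT. Between siNT1 and siNT2 the differences were −0.005 (exact p = 0.771) and 0.084 points (exact p = 0.0286), and between the RBM39 siRNAs 0.001 and −0.048.

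The lower inclusion was spread over many exons. Of all exons 57.9% had a lower mean with siSF3B1-13 in DMSO and 61.0% in 4OHT, while 34.1% and 32.7% had a higher mean and the rest were tied. Between siNT1 and siNT2 32.5% and 31.2% were lower in siNT1, 32.7% and 35.9% higher and the rest tied. It was widest in the 247 exons included at 50 to 90% in siNT libraries (−2.83 and −2.71 points), and it was found in exons whose length was a multiple of 3 (−1.13 and −1.38) and in those whose length was not (−0.91 and −1.14). In 2 classes the difference did not pass the test in DMSO, the 99 exons of at most 27 nt (−0.49, exact p = 0.114) and the class of the longest exons (247 exons, −0.13, exact p = 0.314).

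**Figure D4:**
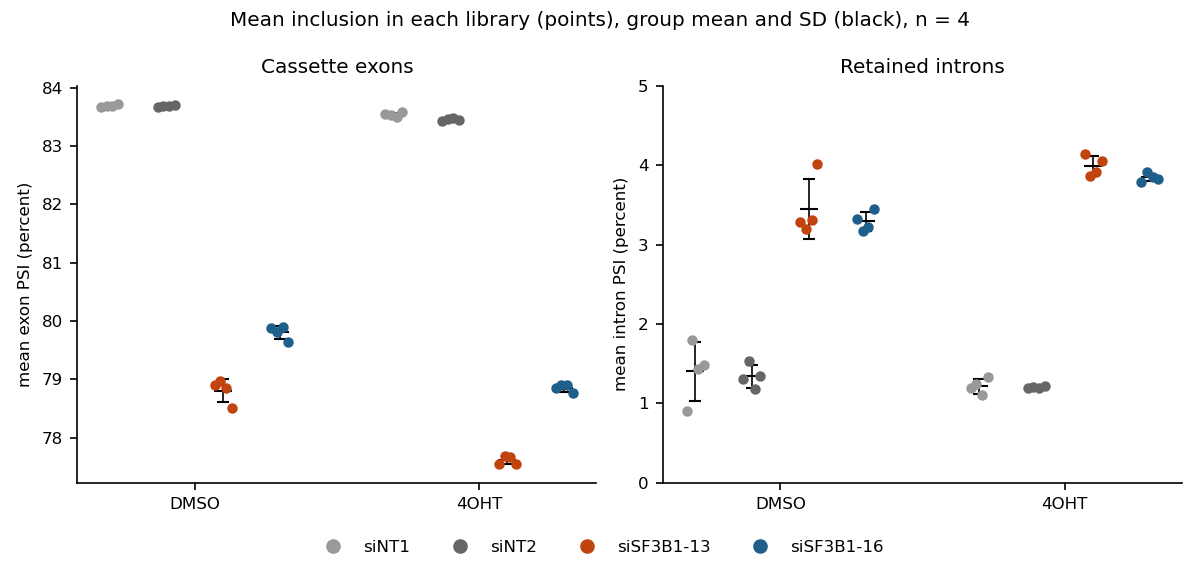
Mean PSI per library over the 7673 exons and the 5248 introns tested, in percent, with 1 point per library and the mean ± SD (n = 4). The axes do not start at 0. In both treatments the exon means of siSF3B1-13 (77.5 to 79.0) lie under those of siSF3B1-16 (78.8 to 79.9), and both lie under siNT. The intron means of the siRNAs overlap.

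Few single exons passed the test. With a minimum difference of 5 points 82 exons were called in DMSO (1.07% of 7673, limma on the logit of PSI), 76 lower and 6 higher with siSF3B1-13, and 103 in 4OHT (1.34%), 94 lower and 9 higher. Of these, 59 and 70 had changed from siNT with siSF3B1-13 alone, 19 and 21 with both siRNAs, 4 and 9 with siSF3B1-16 alone, and in 4OHT 3 with neither. Those changed with siSF3B1-13 alone thus made up 72.0% and 68.0% of the called exons, against 9.03% and 9.62% of all exons, and those changed with both 23.2% and 20.4%, against 18.8% and 21.9%. The calls and these classes share the siSF3B1 libraries. Between siNT1 and siNT2 no exon was called by limma in either treatment (282 and 240 at an unadjusted p under 0.05), and between the RBM39 siRNAs 7 and 1 were. The difference itself differed between treatments at 35 exons (0.456%).

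8 exons in 7 genes were called in both treatments in the same direction (0.104% of exons tested), all lower with siSF3B1-13, and 1 was called in opposite directions, the 45-nt exon of TMEM87A. These 8 were not among the most clear-cut, because their libraries overlapped between the siRNAs in at least 1 treatment. With the 16 siSF3B1 libraries alone in the fit 3 exons in DMSO, 2 in 4OHT and none in both were called, with 664, 722 and, in the same direction, 133 lower and 3 higher at an unadjusted p under 0.05. None of the 8 has a length that is a multiple of 3, against 42.3% of all exons tested. Each had a mean PSI of at least 99 in the siNT groups of both treatments. Such inclusion was common, since over all exons tested the median siNT PSI was 99.5 and 80.9% lay at 90 or more. Medians of 39 to 120.5 reads per library stood behind each value.

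2 of the 8 lie next to each other in RANBP3, which codes for a Ran-binding cofactor of nuclear export, and are named after their values were seen. The upstream exon (103 nt) had a PSI of 94.67, 93.24, 92.18 and 95.96 with siSF3B1-13 against 98.25, 100, 100 and 100 with siSF3B1-16 in DMSO, and 81.38, 87.06, 97.33 and 94.26 against 100, 93.81, 95.58 and 100 in 4OHT. The downstream exon (110 nt) had 95.8, 92.34, 91.95 and 95.08 against 96.02, 100, 100 and 100, and 81.14, 88.51, 96.8 and 91.74 against 100, 93.03, 95.18 and 100. As neighbours they can share reads and are not independent. The groups did not overlap in DMSO and overlapped in 4OHT, where the calls of both exons were lost without siSF3B1-13 replicate 1 or 2 or siSF3B1-16 replicate 1 or 4 (adjusted p between 0.0615 and 0.140). In DMSO the difference of the downstream exon fell under 5 points without any of 5 libraries.
The 2 exons and, for comparison, an exon of PICALM are printed from the GRCh37 reference with 40 bases of the intron before and 10 of the intron after, the exon in capitals.
RANBP3 upstream exon, chr19:5923813-5923965 (minus): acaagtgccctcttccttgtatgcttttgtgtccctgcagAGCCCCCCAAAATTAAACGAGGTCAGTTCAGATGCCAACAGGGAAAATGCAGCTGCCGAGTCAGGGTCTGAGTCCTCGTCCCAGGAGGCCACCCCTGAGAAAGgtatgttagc
RANBP3 downstream exon, chr19:5923195-5923354 (minus): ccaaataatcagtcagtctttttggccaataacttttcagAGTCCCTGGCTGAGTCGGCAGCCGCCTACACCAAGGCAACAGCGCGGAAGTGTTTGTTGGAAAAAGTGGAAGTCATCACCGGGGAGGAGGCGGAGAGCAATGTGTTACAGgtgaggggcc
PICALM exon, chr11:85711676-85711862 (minus): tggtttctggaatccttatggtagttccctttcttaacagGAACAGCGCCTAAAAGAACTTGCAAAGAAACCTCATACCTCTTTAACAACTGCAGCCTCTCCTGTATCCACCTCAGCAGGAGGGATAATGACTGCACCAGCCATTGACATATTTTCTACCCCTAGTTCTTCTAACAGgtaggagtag

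PICALM, named above for its level, also held a called exon. The exon, 137 nt as annotated and 131 nt in the event table, had a PSI of 81.5, 75.5, 89.23 and 84.65 with siSF3B1-13 against 98.14, 92.85, 98.28 and 93.78 with siSF3B1-16 in DMSO, and 84.39, 76.04, 81.85 and 92.51 against 91.39, 95.26, 96.17 and 93.13 in 4OHT. The mean differences were −13 points (adjusted p = 0.000459) and −10.3 points (adjusted p = 0.0239), without overlap in DMSO and with 1 overlapping siSF3B1-13 library in 4OHT. The 4OHT call was lost without siSF3B1-13 replicate 2 or 3 or siSF3B1-16 replicate 2 or 3 (adjusted p between 0.0528 and 0.0899). The PICALM exon is annotated in 9 transcripts, all coding.

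The other 5 exons lay in C9orf78, MAP3K3, OSBPL8, PPIE and DNAJC21. The 52-nt exon of C9orf78, a spliceosome-associated protein, had a mean of 76.1 against 88.4 in DMSO and 76.1 against 87.1 in 4OHT. The 122-nt exon of MAP3K3, a kinase upstream of MAP kinases, stood at 100 in all 8 siSF3B1-16 libraries, and at 92.48, 79.13, 100 and 95.05 in DMSO and 85.22, 100, 95.06 and 92.47 in 4OHT with siSF3B1-13. PPIE, a spliceosomal cyclophilin, had 87.2 against 95.9 and 83.1 against 94.9, DNAJC21, a ribosome maturation cochaperone, 88.9 against 98.5 and 86.2 against 95.3, and OSBPL8, a lipid transfer protein, 93.1 against 100 and 90.3 against 96.9. The adjusted p-values ran from 0.00220 to 0.0209 in DMSO and from 0.00438 to 0.0495 in 4OHT, and each of these 5 lost a call without at least 1 library. The number of exons called the same way fell to 4 without replicate 2 of siSF3B1-13 or replicate 4 of siSF3B1-16 in 4OHT, and to 5 without replicate 3 of siSF3B1-13 in 4OHT.

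The exons that separated the siRNAs most cleanly were a different set. In 46 exons of 41 genes all siSF3B1-13 libraries lay under all siSF3B1-16 libraries in both treatments (0.600% of exons tested), against 2 exons, in RRP9 and PRKCSH, with the opposite order (0.0261%). None of the 46 was called in both treatments, and 10 were called in 1 treatment. The difference was at least 5 points in both treatments in 29 exons and at least 9 points in 13. Their median length was 90 nt, and 29 of the 46 (63.0%) were a multiple of 3. The genes of these 13 are named here, and were chosen after their values were seen.

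The exon of UNC119, a lipid-binding trafficking protein, had a PSI of 73.53, 58.62, 69.91 and 74.47 with siSF3B1-13 against 84.81, 91.21, 83.51 and 78.26 with siSF3B1-16 in DMSO, and 67.68, 68.93, 69.89 and 68.14 against 86.67, 83.33, 84.0 and 88.57 in 4OHT. The differences were −15.3 and −17.0 points, and neither passed the adjustment (limma, adjusted p = 0.356 and 0.264). CDK4, the cyclin D kinase of G1, had 80.32, 71.42, 78.13 and 69.9 against 83.75, 84.86, 88.11 and 91.26 in DMSO and 69.25, 68.77, 72.51 and 67.77 against 77.78, 76.08, 82.15 and 88.99 in 4OHT, in an exon of 168 nt. In siNT libraries both exons were included at a mean of at least 98.3%, so both siRNAs lowered them and siSF3B1-13 did so further. Both are printed as above because their whole-codon lengths set them apart from the 8 called exons.
UNC119 exon, chr17:26875600-26875763 (minus): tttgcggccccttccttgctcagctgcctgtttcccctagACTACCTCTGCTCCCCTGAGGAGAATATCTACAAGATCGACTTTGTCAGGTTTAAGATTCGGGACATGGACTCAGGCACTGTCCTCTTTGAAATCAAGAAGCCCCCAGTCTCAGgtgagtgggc
CDK4 exon, chr12:58144696-58144913 (minus): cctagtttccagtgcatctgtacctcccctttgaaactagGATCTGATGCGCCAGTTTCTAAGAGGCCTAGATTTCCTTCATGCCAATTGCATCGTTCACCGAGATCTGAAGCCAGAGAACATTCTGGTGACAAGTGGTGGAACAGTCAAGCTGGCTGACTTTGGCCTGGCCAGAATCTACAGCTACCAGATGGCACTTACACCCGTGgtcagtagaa

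CDC5L, a core spliceosome protein, and POSTN, the matrix protein periostin, were called in DMSO alone. The CDC5L exon (81 nt) had 64.46, 62.04, 63.29 and 63.1 against 85.82, 72.28, 76.4 and 74.3 in DMSO (adjusted p = 0.0369) and 61.87, 59.69, 60.21 and 58.61 against 74.35, 70.62, 68.93 and 77.45 in 4OHT (adjusted p = 0.0931). The POSTN exon (90 nt), read by 244 to 1014 reads per library, had 30.93, 30.44, 32.38 and 34.8 against 51.39, 46.19, 45.2 and 49.5 in DMSO (adjusted p = 0.0258) and 37.72, 37.84, 44.26 and 41.02 against 47.63, 50.62, 48.14 and 51.55 in 4OHT (adjusted p = 0.276). The other exons at least 9 points lower in both treatments lay in DGUOK (−18 and −13.2 points), HIAT1 (−14.0 and −13.8), HSPB11, POM121, DERL1, DCTN3, REXO2, ECHDC1 and WBSCR22. Of these the exon of WBSCR22 was called in DMSO alone, that of HSPB11 in 4OHT alone and the others in neither. The exon of RRP9, a U3 snoRNP protein, went the other way by 10.2 and 9.90 points.

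Intron retention hardly separated the siRNAs. Mean PSI over the 5248 introns tested was 3.45 with siSF3B1-13 against 3.29 with siSF3B1-16 in DMSO (two-sided exact permutation test, p = 0.657) and 3.99 against 3.85 in 4OHT (exact p = 0.0857), whereas siNT groups stood at 1.20 to 1.4. The DMSO difference of 0.157 points rested on 1 siSF3B1-13 library, replicate 4 at 4.01, and was −0.029 without it. Single introns were called once in DMSO (0.0191%, in STAMBP, 5.93 against 0.28) and 9 times in 4OHT (0.171%), in ABCC5, CHERP, MYOF, NOP14, PARP4, RHOBTB3 and SUPT6H higher and in COPA and SKIV2L2 lower with siSF3B1-13. No intron was called in both (limma, 431 and 491 at an unadjusted p under 0.05), and none differed between treatments in its siRNA difference (414 at an unadjusted p under 0.05). In 7 introns (0.133%) all siSF3B1-13 libraries lay above all siSF3B1-16 libraries in both treatments, and in 1 (0.0191%) under them.

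3 events in genes central to the study were also followed, and only that of SF3B1 was tested. The 12-nt exon of SUPT5H, which did not pass the filters for the test, had a PSI of 7.41, 27.58, 43.22 and 31.37 with siSF3B1-13 against 11.24, 36.92, 21.19 and 12.14 with siSF3B1-16 in DMSO, and 16.0, 21.19, 12.65 and 17.87 against 17.87, 17.36, 9.79 and 31.34 in 4OHT, with overlap in both. The CHD4 intron, likewise not tested, was retained at 54.51, 59.4, 48.73 and 40.65 against 36.67, 37.96, 42.4 and 39.2 in DMSO and at 55.07, 43.75, 34.79 and 51.77 against 53.88, 32.34, 48.22 and 50.93 in 4OHT, where siNT libraries lay between 0.89 and 16.38. With siSF3B1-13 in DMSO 3 of 4 CHD4 values lay above all 4 with siSF3B1-16, and in 4OHT the groups overlapped throughout. In SF3B1 itself a 70-nt exon included at 0.87 to 7.47% in siNT libraries was at 0 in 14 of the 16 siSF3B1 libraries, with 1.14 and 2.56 in the others. It was not called between the siRNAs in DMSO or 4OHT (limma, adjusted p = 0.801 and 0.549).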

How the data were processed

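RNA was extracted with RNeasy kits from IMR90 ER:RAS cells and sequenced after mRNA capture with a Watchmaker library kit. The authors ran vast-tools, version 2, with a VAST-DB library named hg19, merged lanes per sample, and combined the samples into tables of raw read counts per gene, RPKM corrected for mappability, and PSI in percent for each splicing event, which carries a coverage score. They also deposited a signal table of library-scaled counts (CPM) after edgeR's scaling and limma's voom. No column held the authors' own comparisons. The edgeR and limma names come from the submitters' processing notes. The event coordinates lie in GRCh38 although hg19 was named, and exons were placed on GRCh37 through the original location that the GENCODE annotation records for each exon.

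Genes were tested with edgeR 4.0.16 (quasi-likelihood F-test, TMM) in R 4.3.3, with a mean for each of 12 groups over 48 libraries, for the 9991 of 19847 gene entries with at least 10000 counts in total. 338 entries had no count. Genes passed at an adjusted p (Benjamini-Hochberg) under 0.05, and CPM were computed from the deposited counts with TMM. Exons and introns were tested with limma 3.58.1 on the logit of 0.01 plus 0.98 times the PSI share, if scored at least VLOW in each library, with a PSI range of at least 5 points, and for introns with an intron balance p of at least 0.05. This kept 7673 exons and 5248 introns. A call needed an adjusted p under 0.05 and at least 5 points. Mean PSI was compared by two-sided exact permutation tests. Heptamers were counted in 3′UTRs of Ensembl canonical transcripts, and 9790 of 9807 had the stop codon in place. Figures were drawn with matplotlib 3.10.9. The gene and exon calls the same way in both treatments were checked on simulated data, and the other tests were not.

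Groups were taken from the titles, and the 4OHT siNT2 libraries, whose other label reads siNT1, were grouped by title. The study's methods state fewer replicates than the labels. The methods describe replicates of work in culture as independent experiments in general, the labels do not say so for these libraries, and p-values measure only the spread between these samples. Counts of replicate pairs differed by 2.00 to 25.7 times sampling noise (chi-square per degree of freedom, 24 pairs). The largest values (14.8, 15.2 and 25.7) were those of the pairs with replicate 1 of siSF3B1-13 in DMSO, and all other pairs reached at most 8.77. Total counts of 31467221 to 52734636 limit the precision of low genes. Named genes were SF3B1, RBM39, SUPT5H and CHD4, the 12 higher and 12 lower with no overlap and the largest smaller absolute log2 fold change of the treatments, 3 with the largest treatment difference, and up to 3 members per list called in both. A gene that this rule also chose is not reported here. For exons the same rule, with up to 6 in each direction, chose none, so the 8 exons called the same way were named in full. The exons without overlap were chosen after their values were seen. The members, the 23 lists (572 of 573 entries matched) and the heptamer search were chosen with earlier results of these data known. Alternatives were DESeq2 1.42.0, other filters, transformations, thresholds and sets of libraries, a replicate block and leaving out each library.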

Additional observations from a re-analysis of the deposited data

Results flagged for a closer look

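The difference between the siRNAs differed between DMSO and 4OHT at 1127 genes and 35 exons, including 27 of the 83 named genes, of which 26 are given here (edgeR, adjusted p under 0.05, log2 fold change in 4OHT minus that in DMSO). It was higher in 4OHT for IFIT1 (1.71), TOP2A (0.86), APAF1 (0.80), HIST1H1C (0.59), CCNB2 (0.59), HMGCS1 (0.56), IDI1 (0.53), HSP90B1 (0.52), NAP1L5 (0.48), HTATSF1 (0.48), ME1 (0.42), IRS2 (0.35), HNRNPA1 (0.23) and CYP51A1 (0.16). It was lower in 4OHT for SLC7A14 (−1.73), SLC16A6 (−1.31), LRRC33 (−0.73), PHLDB2 (−0.68), IL15RA (−0.60), HBEGF (−0.51), PICALM (−0.51), ICAM1 (−0.49), IGFBP7 (−0.32), RRS1 (−0.30) and SERPINE2 (−0.23). For CSF2 the fitted value of −3.98 depends on the prior count, since the DMSO libraries with siSF3B1-16 held none.

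A library stood apart from the other 3 of its group in 26 of 384 groups of 4 checked (6.77%, where chance gives about 5%), with a gap over Dixon's critical value for 4 samples. With siSF3B1-13 in DMSO these were mean intron PSI (gap of 0.858 of the range, replicate 4 at 4.01), SLC16A6 (0.845), HNRNPA1 (0.850), IGFBP3 (0.939), COL8A1 (0.899), CCNT1 (0.849), the PPIE exon (0.841) and the SF3B1 exon (1.0). With siSF3B1-16 in DMSO they were LMLN (0.869), SRPK2 (0.842), HNRNPA0 (0.838) and both RANBP3 exons (1.0). With siSF3B1-13 in 4OHT they were RASD1 (0.878), APAF1 (0.898), SNCB (0.856), HTATSF1 (0.866), DDIT3 (0.838), HSP90B1 (0.851), MCM4 (0.893) and CTR9 (0.862). With siSF3B1-16 in 4OHT they were SF3B1 itself (0.901, replicate 1 at 30.7 CPM), DCC (0.843), SNCB (0.876), AC004086.1 (0.885) and the SF3B1 exon (1.0).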

How the results depend on the processing

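Calls kept their direction under most alternatives, while counts moved with the threshold and with the libraries in the fit. Requiring a 2-fold change left 91 genes in DMSO, 30 in 4OHT, 17 the same way and 52 that differed between treatments, with 0 for the non-targeting and 22 for the RBM39 siRNAs the same way. With the 16 libraries of each pair alone these counts were 6028, 5310, 3476, 3058, 149 and 576, and for exons 3, 1, 0 and 0, with 1 exon for the RBM39 pair and 0 and 0 introns. For the non-targeting pair DESeq2 gave 37 genes and a filter of at least 1 count 6. With no minimum difference 177, 227, 22 and 59 exons and 5, 40 and 1 introns were called (DMSO, 4OHT, same way and, for exons, between treatments), and with 10 points 19, 23, 2 and 8 exons and 0 and 0 introns. Coverage of at least LOW gave 45, 53 and, between treatments, 8 exons and 0 and 2 introns. The plain logit gave 2, 0, 0 and 0 exons and 0 and 0 introns. Introns in DMSO numbered 3 without the range filter and 5 without the balance filter. Chosen after seeing the data, the 16 siSF3B1 libraries with the same events gave 3, 2, 0 and 1 exons and 0 and 0 introns, and the average of both treatments gave 4413 genes, 107 exons and 2 introns, or 30 exons in those 16 libraries. The cause of these shifts was not tested.

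Without replicate 4 of siRBM39-08 in 4OHT 5151 and 4258 genes were called, 2774 the same way, 2042 between treatments, 69 for the non-targeting and 2680 for the RBM39 pair, with 32 exons between treatments and 2 introns in DMSO. Leaving out each siSF3B1 library gave 3332 to 3695 genes in DMSO, 2363 to 2770 in 4OHT, 1571 to 1704 the same way and 967 to 1065 between treatments, with 15 to 17 for the non-targeting and 1304 to 1323 for the RBM39 pair. SF3B1 ranged from −0.12 to −0.085 and from 0.0098 to 0.11. Exons ranged from 68 to 93, 95 to 122, 4 to 11 and 36 to 62, and introns from 1 to 4 and 9 to 16. Mean exon PSI differed by −1.06 to −0.904 and −1.27 to −1.22 points, and mean intron PSI by −0.029 to 0.243 and 0.099 to 0.190. Reversals were mean intron PSI in DMSO without siSF3B1-13 replicate 4 (−0.029), its median over introns in 4OHT (−0.00375), RBM39 in 4OHT without siSF3B1-13 replicate 1 (0.00475, range −0.045 to 0.00475), and the SF3B1 exon, at 0 in each treatment without the 1 library that held it (ranges 0 to 0.38 and −0.853 to 0 points).

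Weak correlations between libraries did not settle whether replicate numbers pair the samples. Same-numbered siSF3B1-13 and siSF3B1-16 libraries correlated at −0.127 to 0.257 in their deviations (2 of 8 over 0.1) and others at −0.252 to 0.240 (3 of 24 over 0.1). With the replicate block 3731 and 2776 genes were called, 1796 the same way, and 84, 100 and 6 exons. The mean exon PSI differences of −1.0 and −1.24 points had exact p = 0.125, the smallest that 4 pairs allow. Depth and the 4 libraries per group limit events with few reads most.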
